A study of Mus musculus with 4 samples.

Results

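The members described here are genes of oxidative phosphorylation, chosen by name: genes starting with Nduf, Uqcr, Atp5 or Cox4 to Cox8, the succinate dehydrogenase genes Sdha, Sdhb, Sdhc and Sdhd, and all mt- genes, which the mitochondrial genome encodes. They are 102 of the 12763 genes of the table. Of these, 89 are nuclear, 81 coding for subunits of the complexes and 8 for assembly factors of complex I (Ndufaf genes), and 13 are mt- genes. The name rule leaves out the complex III subunit Cyc1 and the electron carrier Cycs, which are given with the neighbouring pathways. The genes came from single-cell RNA libraries of mouse CD8 T cells, 1 library per group, so none of the differences comes with a test or an error between replicates.

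The 4 groups came from mixed bone marrow chimeras, C57BL/6 mice that were lethally irradiated with 8 Gy and received marrow of a Cd4cre Cd137fl/fl ROSA26tomato donor and of a Cd137fl/fl ROSA26tomato donor. Cre under the Cd4 promoter acts in T cells at the stage when both CD4 and CD8 are made, so that T cells of the first donor lose CD137 (4-1BB, encoded by Tnfrsf9), a costimulatory receptor of activated T cells. All mice carried subcutaneous B16K1 melanoma and were examined on day 21, so no group lacked a tumour or irradiation. The CD8 T cells, from spleen or tumour, were divided by their tomato reporter and not by CD137, and cells of 7 mice were pooled per library. The groups are therefore spleen CD137 minus, spleen CD137 plus, tumour CD137 minus and tumour CD137 plus. The labels contradict each other on which fraction is tomato positive, so the CD137 status alone was used, and loss of CD137 cannot be told apart from Cre or from the donor.

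Oxidative phosphorylation makes ATP in the inner mitochondrial membrane. Complexes I and II pass electrons from NADH and succinate to ubiquinone, complex III passes them to cytochrome c and complex IV to oxygen, and complex V, the ATP synthase, uses the proton gradient that complexes I, III and IV build. All complexes except complex II combine nuclear with mt- subunits, and in T cells they support quiescent and memory cells as well as cells that divide.

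The table held 473 to 2766 cells per library, with a median of 3701.5 to 5344 corrected counts and 1307.5 to 1633 genes per cell, and corrected counts summed to 2466601 to 10273681 per library. Of 6946 distinct barcodes, 19 (0.274%) occurred in more than 1 library. The targeted gene Tnfrsf9 had 2.34 CPM in spleen minus, 16.2 in spleen plus, 57.5 in tumour minus and 421 in tumour plus, lower in each minus library as labelled but present in 15.8% of tumour minus cells. CPM are corrected counts per 1e+06 of the library. The defining CD8 T cell genes Cd8b1 and Cd3e had a value in 97.6% to 98.5% and 97.9% to 99.2% of cells. Summed melanoma markers were listed at 0 in spleen and at 30.5 and 30.8 CPM in tumour minus and plus, and erythroid markers only in tumour plus (61.3 CPM). In spleen minus, spleen plus, tumour minus and tumour plus, dendritic cell markers summed to 18.5, 0, 47.9 and 63.3 CPM. Macrophage markers had 3.56, 4.05, 24.7 and 32.8 CPM, B cell markers 42.4, 30, 9.44 and 8.08 CPM. The CD8 T cell markers summed to 5653, 5286, 5594 and 6701 CPM. The tumour plus library had the lowest share of ribosomal protein counts (29%, against 34.3% in tumour minus, 37.6% in spleen plus and 39.9% in spleen minus). No cell had more than 5.84% of its corrected counts in mt- genes, with maxima from 5.06% to 5.84% per library.

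Summed nuclear subunits hardly differed between the libraries. They came to 19012 CPM in spleen minus, 19526 in spleen plus, 19956 in tumour minus and 20336 in tumour plus. All 4 values lie close together, and the log2 ratio of minus over plus was -0.03 in tumour and -0.04 in spleen. The ratio of tumour over spleen was 0.07 in the minus and 0.06 in the plus libraries. All ratios are log2 ratios of CPM with a pseudocount of 1 CPM. Summed mt- genes did not follow this: they came to 19742 CPM in spleen minus, 20639 in spleen plus, 21145 in tumour minus and 15425 in tumour plus. The tumour plus library alone stood low, so that the log2 ratio was 0.46 for tumour minus over plus and -0.42 for tumour over spleen in the plus libraries, against -0.06 in spleen and 0.10 for tumour over spleen in the minus libraries. The ratio of summed mt- to summed nuclear CPM was 1.04, 1.06 and 1.06 in the first 3 libraries and 0.758 in tumour plus.

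The same held cell by cell. The median mt- share of a cell's corrected counts was 1.94% (quartiles 1.43 and 2.47) in spleen minus, 1.89% (1.36 and 2.53) in spleen plus, 1.96% (1.43 and 2.69) in tumour minus and 1.35% (0.937 and 1.95) in tumour plus. The median nuclear share was 1.87%, 1.95%, 1.89% and 1.99%, with overlapping quartiles. Cells with fewer genes had higher mt- shares in each library, and tumour plus held the most cells with under 1000 genes (690 of 2766). Among these its median mt- share was nevertheless the lowest, 1.74% against 2.42%, 2.64% and 2.58%, the spleen plus value resting on 11 cells. At 2000 genes or more it was 1.09% in tumour plus against 1.46%, 1.51% and 1.37%. Across cells of a library the mt- and nuclear shares had Pearson's r of -0.27 (n = 2464), -0.55 (n = 473), -0.46 (n = 1262) and -0.27 (n = 2766). Both shares are taken of one total per cell, so these values are descriptions only. The part that cell quality, sequencing depth or the authors' cell filter takes in the low tumour plus level was not tested.

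**Figure D1:**
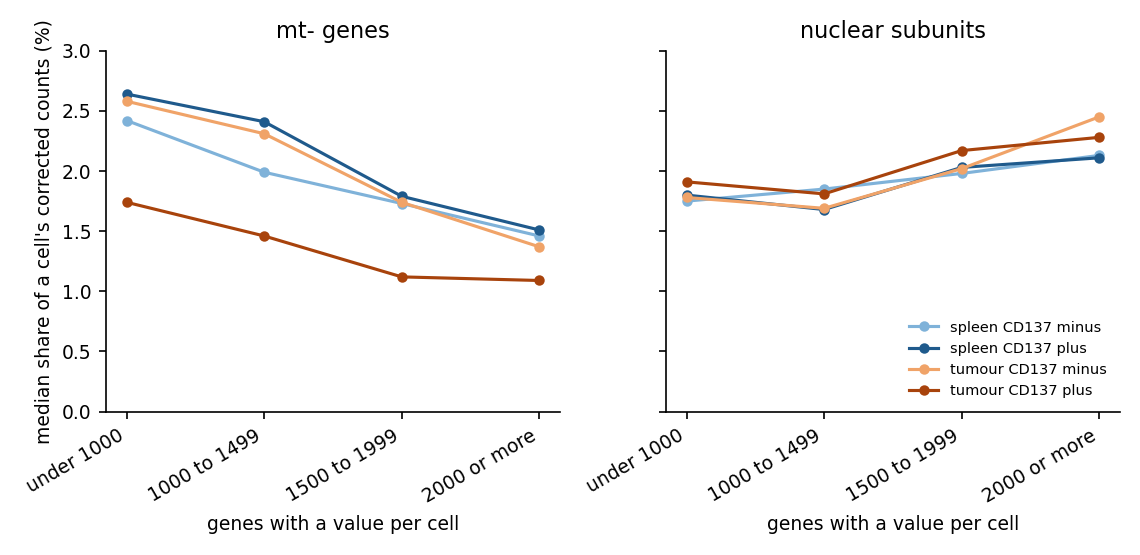
Median share of a cell's corrected counts (%, vertical axis) in mt- genes (left) and nuclear subunits (right) for cells in 4 classes of genes per cell (horizontal axis); each line is 1 library. The mt- line of tumour CD137 plus is lowest in each class, from 1.74% to 1.09%, while the nuclear lines lie within 1.68% to 2.45%.

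The 13 mt- genes encode 7 subunits of complex I (mt-Nd genes), cytochrome b of complex III (mt-Cytb), the 3 catalytic core subunits of complex IV (mt-Co genes) and 2 membrane subunits of complex V (mt-Atp6 and mt-Atp8). Within tumour, 12 of the 13 were higher in the minus library, mt-Nd4 being the exception, and 5 passed the size limit used for calls, a log2 ratio of at least 0.5. Of all 5353 genes measured in this comparison 1.7% were called higher and 5.44% lower. A gene was measured when either library as a whole reached 20 CPM with a value in at least 5% of its cells, and both libraries had a value. The median over all measured genes was -0.13, and 10 of the 13 mt- genes passed the limit relative to that median. By that rule 3.68% of all measured genes were higher and 2.3% lower.

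mt-Co1, the catalytic subunit of complex IV, had 3978 CPM in spleen minus, 4273 in spleen plus, 5439 in tumour minus and 3812 in tumour plus. Tumour minus stood above the other 3 libraries, and tumour minus over plus was 0.51. mt-Co2 had 2614, 2878, 2815 and 2121 CPM and mt-Co3 3501, 3513, 3861 and 2792 CPM, in the same library order. Both were lowest in tumour plus (tumour ratios of 0.41 and 0.47, spleen ratios of -0.14 and -0.01). mt-Cytb had 2324, 2410, 2129 and 1624 CPM, again lowest in tumour plus, with ratios of 0.39 in tumour and -0.05 in spleen.

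The complex I genes fell into several patterns. mt-Nd1 had 840, 813, 730 and 620 CPM and mt-Nd2 956, 977, 709 and 487 CPM in spleen minus, spleen plus, tumour minus and tumour plus. Both were lower in either tumour library than in either spleen library, and mt-Nd2 was called higher in tumour minus (0.54) and lower in tumour plus than in spleen plus. mt-Nd5 had 385, 459, 375 and 265 CPM, lowest in tumour plus, and was called in tumour (0.50, against -0.25 in spleen). mt-Nd6, the only mt- gene transcribed from the other strand of the mitochondrial genome, had 15.9, 17.0, 27.2 and 24.4 CPM. It was the mt- gene with higher levels in both tumour libraries, at 0.74 in the minus and just short of the limit, at a rounded 0.50, in the plus libraries. It was below the filter in both spleen libraries, and no source used here says whether the counting used the strand.

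3 short mt- genes set the spleen plus library apart. mt-Nd4l had 570 CPM in spleen minus, 1165 in spleen plus, 630 in tumour minus and 287 in tumour plus. Spleen plus was highest and tumour plus lowest, so the ratio of minus over plus was 1.13 in tumour and -1.03 in spleen. mt-Nd3 had 92.7, 156, 107 and 49.0 CPM in that order, with ratios of 1.11 and -0.75. mt-Atp8 had 103, 401, 116 and 89.6 CPM, the 3 others lying far below spleen plus, with ratios of 0.37 in tumour and -1.96 in spleen. Its share of cells with a value was 81% (95% exact interval 77.1 to 84.4, counting error only) in spleen plus against 25.4% to 37.8% elsewhere. mt-Nd4 moved the other way, with 856, 481, 590 and 612 CPM and a spleen ratio of 0.83. In spleen, with 1.41% of 5183 measured genes called higher and 10.3% lower, mt-Nd4 was the mt- gene called higher and mt-Atp8, mt-Nd4l and mt-Nd3 those called lower.

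**Figure D2:**
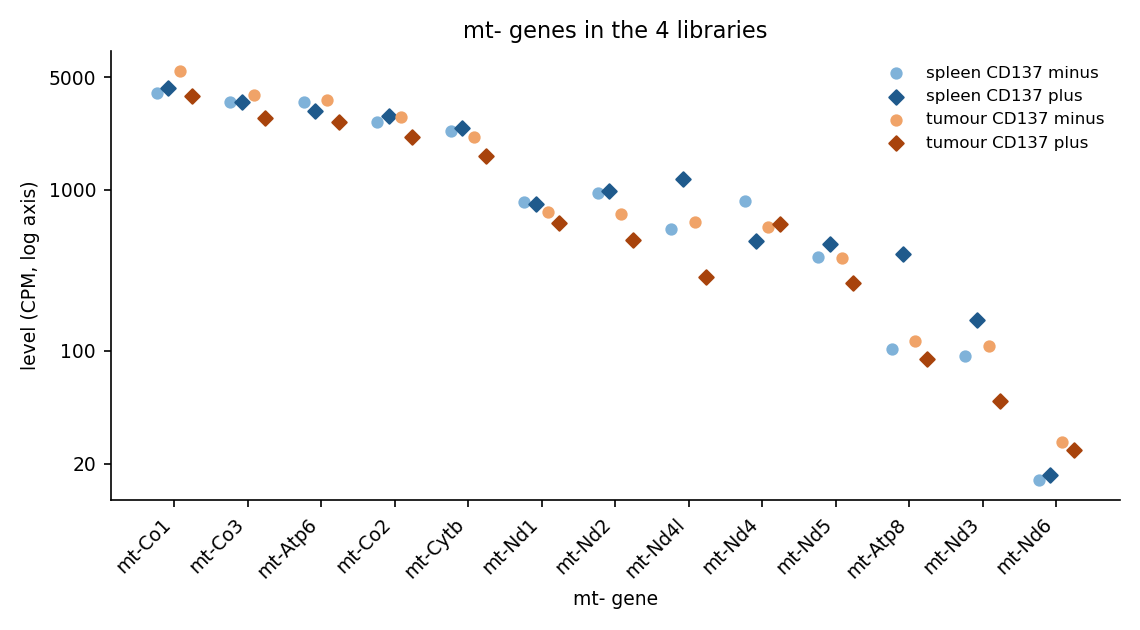
Level of each mt- gene (CPM, log axis) in the 4 libraries (1 point per library, no error as each group is 1 library). Tumour CD137 plus is lowest for most genes, spleen CD137 plus stands out high for mt-Nd4l (1165), mt-Atp8 (401) and mt-Nd3 (156), and mt-Nd6 is higher in both tumour libraries.

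mt-Nd4l and mt-Nd4, and likewise mt-Atp8 and mt-Atp6, are read from 1 shared messenger RNA each, with overlapping coding sequences. The overlaps are shown because a read there cannot be assigned to either gene. In capitals are the 43 bases shared by mt-Atp8 and mt-Atp6 and the 7 bases shared by mt-Nd4l and mt-Nd4, each within 120 bases of the plus strand of GRCm38 (chrM:7910-8029 and chrM:10114-10233), from GENCODE M21 transcripts:
mt-Atp8 and mt-Atp6: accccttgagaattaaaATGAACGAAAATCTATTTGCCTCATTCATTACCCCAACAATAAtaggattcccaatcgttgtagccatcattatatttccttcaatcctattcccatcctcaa
mt-Nd4l and mt-Nd4: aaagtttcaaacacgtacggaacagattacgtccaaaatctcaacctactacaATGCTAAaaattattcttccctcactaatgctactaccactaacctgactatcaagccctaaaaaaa
In spleen, minus and plus differed less when each pair was summed than for either of its genes, whereas in tumour the summed ratios were no smaller than those of mt-Nd4, mt-Atp8 and mt-Atp6. mt-Nd4l with mt-Nd4 came to 1425, 1646, 1219 and 899 CPM in spleen minus, spleen plus, tumour minus and tumour plus, ratios of 0.44 in tumour and -0.21 in spleen. mt-Nd4l took 40%, 70.8%, 51.6% and 31.9% of its pair, so the split differed between libraries within one transcript. mt-Atp8 with mt-Atp6 came to 3610, 3495, 3732 and 2732 CPM, ratios of 0.45 and 0.05, and mt-Atp8 took 2.84%, 11.5%, 3.12% and 3.28% of its pair. mt-Atp6 alone had 3507, 3094, 3616 and 2642 CPM, lowest in tumour plus.

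Complex by complex, the nuclear subunits of complexes I, III, IV and V stayed level between minus and plus. Summed over the 37 nuclear subunits of complex I the levels were 5285, 5501, 5001 and 5087 CPM in spleen minus, spleen plus, tumour minus and tumour plus, with log2 ratios of -0.02 in tumour and -0.06 in spleen. The 8 of complex III gave 1923, 1858, 1982 and 1972 CPM (0.01 and 0.05), the 15 of complex IV 4855, 4990, 5550 and 5603 CPM (-0.01 and -0.04) and the 17 of complex V 6546, 6817, 7097 and 7282 CPM (-0.04 and -0.06). For tumour over spleen, complex IV was at 0.19 in the minus and 0.17 in the plus libraries and complex V at 0.12 and 0.10. With CPM taken over genes other than mt- and ribosomal protein genes they were at 0.07 and -0.04 and at -0.01 and -0.11. Relative to the median of all genes they were at 0.16 and 0.10 and at 0.09 and 0.03. Their direction thus depends on the scaling, except for complex IV in the minus libraries, which was above 0 throughout. Summed complex I was lower in tumour in both fractions (-0.08 and -0.11), also with that scaling (-0.21 and -0.32) and relative to the median of all genes (-0.11 and -0.18). The median over its 37 subunits was -0.12 in the minus but 0.05 in the plus libraries, with 19 of 37 above 0, so in the plus libraries the sum and the median differ in sign. These 2 tissue contrasts share no library.

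Complex II, succinate dehydrogenase, is also an enzyme of the citric acid cycle and has no mt- subunit. Its summed level was 403 CPM in spleen minus, 360 in spleen plus, 327 in tumour minus and 393 in tumour plus, lowest in tumour minus. All 4 genes were below 0 for tumour minus over plus, and all 4 above 0 in spleen, also without mt- and ribosomal protein genes in the total and relative to the median of all genes. Sdhb, the iron-sulfur subunit, had 167, 140, 140 and 174 CPM (tumour -0.31, spleen 0.25). The membrane anchor Sdhc had 59.5, 53.9, 48.4 and 60.1 CPM (-0.31 and 0.14), and the other anchor, Sdhd, 71.8, 64.1, 68.2 and 80.2 CPM (-0.23 and 0.16). Sdha, the flavoprotein that oxidises succinate, had 105, 102, 70.9 and 78.5 CPM and was lower in both tumour libraries, at -0.56 in the minus and -0.38 in the plus libraries. None of the 4 passed the size limit between minus and plus, and relative to the median of all genes the tumour median of the 4 was -0.14.

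Single nuclear subunits were called in small numbers. In tumour 3 of 78 measured subunits were higher in minus and none lower, in spleen none was higher and 7 were lower. That is 3.85% against 1.7% of all measured genes higher in tumour, and 8.97% against 10.3% lower in spleen, so the spleen share is near that of all genes. The 81 subunits include Cox6a2, Cox6b2 and Cox7a1, which were too low to be measured in any comparison. Ndufa3, an accessory subunit in the membrane arm of complex I, had 149 CPM in spleen minus, 267 in spleen plus, 170 in tumour minus and 108 in tumour plus. It was highest in spleen plus and lowest in tumour plus, and the ratio of minus over plus was 0.65 in tumour and -0.83 in spleen. It had a value in 51.8% (49 to 54.6) of tumour minus cells and 30.6% (28.9 to 32.4) of tumour plus cells, at median totals of 4833.5 and 3701.5 per cell. Ndufs1, a core subunit that carries iron-sulfur clusters, was the complex I subunit furthest below 0 in tumour, just short of the limit at a rounded -0.50. Its levels were 29.2, 31.6, 16.4 and 23.6 CPM, lower in both tumour libraries (-0.80 in minus, -0.41 in plus). In tumour minus it lay below the 20 CPM filter (99 counts), so it was measured there only through the other library of each contrast.

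The 5 small membrane subunits of complex V, which help the enzyme form dimers or hold its membrane part together had ratios of the same signs as Ndufa3. All 5 were above 0 in tumour and all 5 below 0 in spleen, under each of the 3 scalings. Atp5k (subunit e) had 47.6, 98.9, 55.5 and 40.4 CPM in spleen minus, spleen plus, tumour minus and tumour plus, with ratios of 0.45 in tumour and -1.04 in spleen. Atp5md had 143, 223, 236 and 165 CPM (0.51 and -0.63), and Atp5mpl 217, 313, 202 and 135 CPM (0.58 and -0.53). Atp5j2 (0.22 and -0.27) and Atp5l (0.09 and -0.20) moved less. For tumour over spleen in the minus libraries, 4 of the 5 were above 0, the range running from Atp5mpl (-0.10) to Atp5md (0.71). In the plus libraries 1 of the 5 was above 0, the range running from Atp5k (-1.27) to Atp5l (0.01). Atp5mpl was at -1.21 and Atp5md at -0.43 there. By contrast the catalytic subunit Atp5b had 512, 485, 528 and 639 CPM (-0.27 and 0.08), the subunit furthest below 0 for complex V in tumour. The c-ring genes, which code for the same mature protein, stayed between -0.23 and 0.21 in both contrasts (Atp5g1 -0.13 and 0.10, Atp5g2 -0.00 and 0.14, Atp5g3 -0.23 and 0.21).

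Promoters are shown for 3 genes above 0 in tumour and below 0 in spleen for minus over plus. Their tissue contrasts and gated values differ in size. Each sequence runs from 250 bases before to 50 after the RefSeq start in GRCm38.p6, with motif matches in capitals. Ndufa3 lies at chr7:3617123-3617422 on the plus strand, Atp5k at chr5:108434350-108434649 and Atp5md at chr19:47090598-47090897, both on the minus strand:
Ndufa3: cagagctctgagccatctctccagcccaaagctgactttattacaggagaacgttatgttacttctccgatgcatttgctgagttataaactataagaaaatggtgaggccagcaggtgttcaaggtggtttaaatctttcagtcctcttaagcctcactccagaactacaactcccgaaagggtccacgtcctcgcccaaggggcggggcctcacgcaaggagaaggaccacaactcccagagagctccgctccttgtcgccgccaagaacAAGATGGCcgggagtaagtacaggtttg
Atp5k: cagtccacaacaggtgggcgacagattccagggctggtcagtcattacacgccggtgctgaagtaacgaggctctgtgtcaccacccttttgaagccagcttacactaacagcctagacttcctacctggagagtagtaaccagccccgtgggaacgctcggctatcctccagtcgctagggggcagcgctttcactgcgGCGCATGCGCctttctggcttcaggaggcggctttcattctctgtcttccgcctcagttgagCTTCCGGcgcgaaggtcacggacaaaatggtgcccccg
Atp5md: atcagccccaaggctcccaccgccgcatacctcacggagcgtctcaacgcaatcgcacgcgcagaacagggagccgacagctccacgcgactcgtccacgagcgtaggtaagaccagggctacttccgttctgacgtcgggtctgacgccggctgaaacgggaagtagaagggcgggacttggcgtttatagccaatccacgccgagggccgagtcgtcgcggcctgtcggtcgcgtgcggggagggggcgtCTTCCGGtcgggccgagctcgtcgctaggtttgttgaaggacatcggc
Motifs of factors known to act on respiratory chain genes were searched on both strands by exact letters. The promoter table held 77 promoters of 72 of the 89 nuclear members. The NRF1 motif GCGCATGC occurred in 15.6% of them against 5.42% of 11575 promoters of the table's coding genes. The ETS motif CCGGAAG, which GABP binds, occurred in 24.7% against 18.5%, the YY1 motif AAGATGGC in 13% against 4.59%, and the ERR motif TCAAGGTCA in 2.6% against 0.268%. Ndufa3 holds the YY1 letters, Atp5k the NRF1 and ETS letters and Atp5md the ETS letters, so the 3 promoters share no motif among those searched except ETS in Atp5k and Atp5md. A match is a description of the letters and not a binding site.

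Among the other complexes, Cox7c, a small subunit of complex IV, had 269 CPM in spleen minus, 404 in spleen plus, 493 in tumour minus and 385 in tumour plus. Spleen minus was lowest, which gave a spleen ratio of -0.58, and tumour over spleen in the minus libraries was 0.87, the highest among nuclear subunits. Cox5a, another complex IV subunit, had 307, 293, 382 and 474 CPM and was the complex IV subunit furthest below 0 in tumour (-0.31). Cox7a2l, described as a factor for supercomplexes of complexes III and IV, had 521, 410, 371 and 362 CPM, highest in spleen minus (0.34 in spleen, 0.04 in tumour). Whether it acts so in these mice was not examined. Its relative Cox7a2 had 232, 263, 272 and 263 CPM. In complex III the furthest were Uqcr11 (115, 148, 112 and 91.0 CPM, with 0.30 in tumour and -0.37 in spleen), Uqcrb (-0.21 in tumour) and Uqcrfs1, the Rieske iron-sulfur protein (0.26 in spleen). In complex I, Ndufa1 (-0.61) and Ndufb1-ps (-0.75) were also lower in spleen minus, and Ndufb5 was furthest above 0 there (0.32). Ndufb1-ps is annotated as a non-coding gene in GENCODE M21.

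Between tissues, 2 subunits were called higher and 2 lower in tumour minus over spleen minus (Cox7c and Atp5md, and Ndufs1 and Sdha), against 22% and 14.5% of 5412 measured genes. In the plus libraries 3 were higher and 7 lower, against 24.2% and 17.5% of 5710 genes. The higher were Ndufb8 (0.70), Cox5a (0.69) and the F1 subunit Atp5d (0.65), the lower Ndufa3 (-1.30), Atp5k (-1.27), Atp5mpl, Ndufa5 (-0.81), Uqcr11 (-0.70), Ndufb1-ps (-0.60) and Ndufb4 (-0.55). Cox5a and Atp5d were both highest in tumour plus and next highest in tumour minus, Atp5d with 460, 425, 579 and 667 CPM. In both tissue contrasts and both directions the share of subunits called was below that of all genes, on each of the 3 scalings. The counts themselves depended on the scaling: without mt- and ribosomal protein genes in the total, 7 subunits (8.97%) were lower in the minus contrast against 20.6% of all genes, and 17 (21.8%) in the plus contrast against 25.9%. The lowest in complexes III and IV in the minus contrast were Uqcrc2 (-0.17) and Cox7a2l (-0.49), with Uqcrq (0.25) highest in complex III. For complex V it was Atp5o (-0.19), and in the plus contrast Ndufa4 (-0.21) was lowest for complex IV and Uqcrfs1 (0.32) highest for complex III. Complex II in the plus contrast ran from Sdha (-0.38) to Sdhd (0.32).

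**Figure D3:**
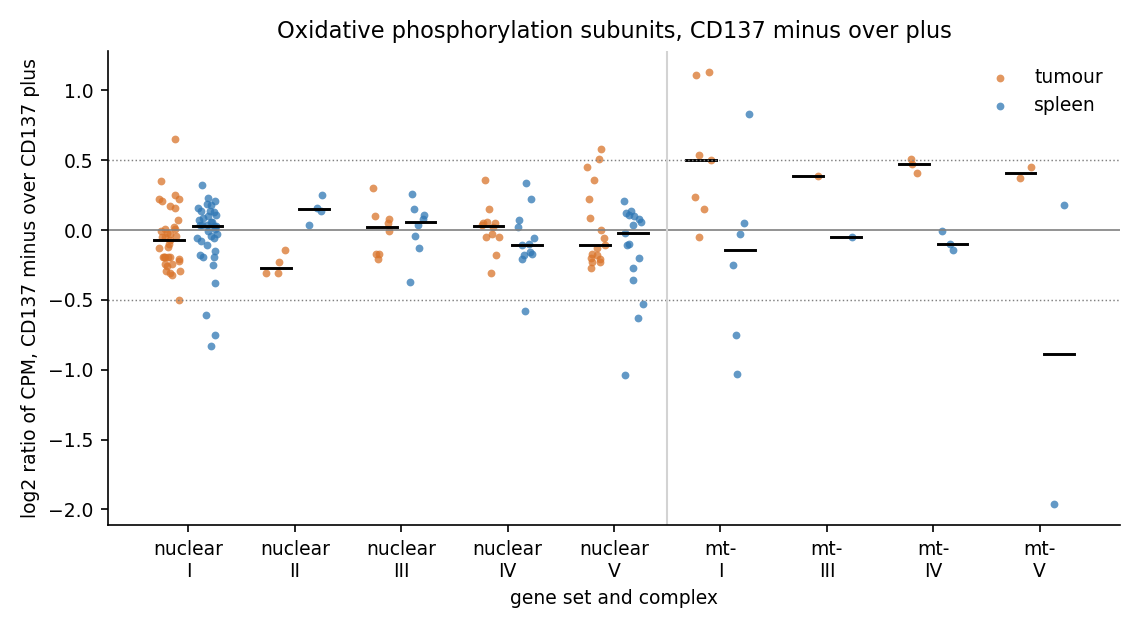
Log2 ratio of CPM, CD137 minus over plus (vertical axis), for each measured subunit (points) in tumour and spleen, by gene set and complex (horizontal axis); black bars are medians and dotted lines the limit of 0.5. Complex II points lie below 0 in tumour and above 0 in spleen, and all mt- points in tumour except 1 lie above 0.

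The 8 complex I assembly factors, which help build the complex without being part of it, were low, summing to 220, 226, 184 and 189 CPM in spleen minus, spleen plus, tumour minus and tumour plus. Both tumour libraries lay below both spleen libraries (-0.26 in minus and in plus). Of those measured, none was called in tumour, while Ndufaf2 was lower in spleen minus (-0.55, or -0.36 with a pseudocount of 10 CPM). Ndufaf4 was lower in tumour than in spleen in both fractions (-0.52 and -0.64), Ndufaf8 in the plus libraries (-0.58), and Ndufaf7 was higher in tumour plus than in spleen plus (0.55, or 0.38 with that pseudocount). Measured were 5 factors in tumour and between the plus libraries, and 4 in spleen and between the minus libraries. Of all genes 10.3% were lower in spleen minus and 14.5% lower in the minus tissue contrast. In the plus tissue contrast 24.2% were higher and 17.5% lower, so these few calls do not set the factors apart. Between the spleen libraries Ndufaf2 reached 20 CPM only in plus (20.3 against 13.5 CPM), and between the plus libraries Ndufaf7 only in tumour (24.7 against 16.6 CPM), so both were measured only through the library where they were high.

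Tissue isoforms were rare in these cells. Cox6a2, the heart and muscle isoform of a complex IV subunit, had a value in 12 of 2464 spleen minus, 0 of 473 spleen plus, 12 of 1262 tumour minus and 32 of 2766 tumour plus cells. A count of 0 in spleen plus allows a share of up to 0.634% of cells with a value, at 3 cells, which says nothing of cells that express the gene undetected. Most of its corrected counts lay in cells with a value of Siglech, a marker of plasmacytoid dendritic cells. These were 52 of 61 in spleen minus, 124 of 128 in tumour minus and 139 of 156 in tumour plus. By cells, 4 of 12, 8 of 12 and 16 of 32 with Cox6a2 had Siglech, and 11, 12 and 32 had CD8. Few cells weigh heavily in the counts, as 1 tumour minus cell held 43. Cox7a1, also a muscle isoform, was listed at 0 in spleen and had 0.828 and 0.973 CPM in tumour minus and plus, and Cox6b2, a testis isoform, had 1.42 to 4.05 CPM. Cox4i2 and Ndufa4l2 were not among the genes of the table under these names.

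The direction of the nuclear subunits went with the length of their coding sequence, grouped in classes chosen after the values were seen. In tumour the 20 measured subunits with under 300 nt of coding sequence had a median ratio of 0.19 and 17 of them were above 0. The 24 of 300 to under 450 nt had a median of -0.05, the 13 of 450 to under 600 nt -0.19 and the 19 of 600 nt or more -0.17, with 2 of the 19 above 0. In spleen the order was turned round, with medians of -0.19, 0.01, 0.14 and 0.06, and 1 of the 20 short ones above 0. Of the 7 subunits called lower in spleen minus, 6 are in the shortest class, and Ndufb1-ps has no coding sequence in the annotation. All 3 called higher in tumour minus are in that class too. Pearson's r of the ratio with log2 coding length, across 76 genes that share their libraries and are no replicates, was -0.61 in tumour and 0.48 in spleen. Of the 78 measured subunits 61 had opposite signs in tumour and spleen, 2 contrasts that share no library. The number was 55 without mt- and ribosomal protein genes in the total and 51 relative to the median of all genes. How many of all measured genes had opposite signs was not counted. Among the other measured genes with a coding length, 1429 of 5178 were above 0 in tumour and 1944 of 4991 in spleen.

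Genes outside the pathway were grouped by length in the same way. Cytosolic ribosomal protein genes showed the same order: those under 300 nt had a median of 0.88 in tumour and -0.55 in spleen (11 genes), those of 600 nt or more 0.08 and 0.22. All other measured genes, without ribosomal proteins, did not, with medians of -0.14 under 300 nt and -0.13 at 600 nt or more in tumour, and -0.00 and -0.11 in spleen. Their r with log2 coding length was 0.12 in tumour and -0.31 in spleen, opposite in sign to that of the subunits in each tissue. The mitochondrial ribosomal proteins had r of 0.00 in tumour and -0.16 in spleen. The short mt- genes mt-Atp8 (201 nt), mt-Nd4l (294 nt) and mt-Nd3 (345 nt) were those furthest below 0 in spleen. Length itself, fragment size or another property of short transcripts was not tested, since no file gives fragment lengths.

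**Figure D4:**
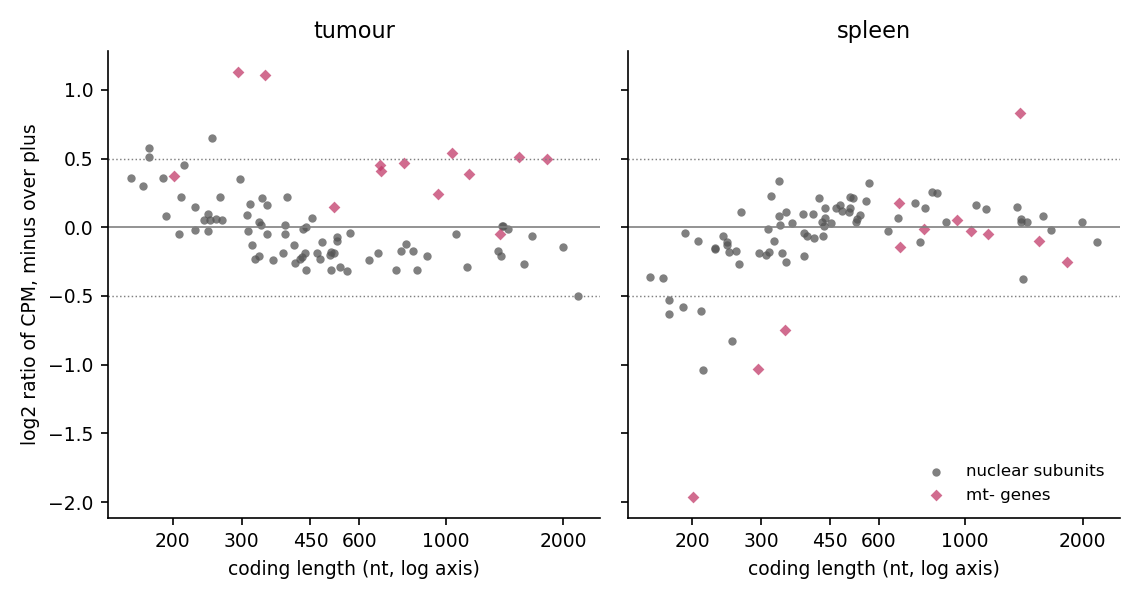
Log2 ratio of CPM, CD137 minus over plus (vertical axis), against coding length (nt, log axis) in tumour (left) and spleen (right); each point is 1 measured gene. Short nuclear subunits lie above 0 in tumour (median 0.19 under 300 nt) and below 0 in spleen (median -0.19), where mt-Atp8 is lowest at -1.96.

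Cells were also taken by marker genes, to see whether the makeup of the libraries moved with these levels. The PD-1 TIM-3 gate held cells with Pdcd1 and Havcr2, receptors of exhausted T cells, 96 in tumour minus and 287 in tumour plus. Its mt- sum was 19567 and 13249 CPM, a ratio of 0.56 with all 13 mt- genes above 0. In the PD-1 TCF1 gate, cells with Pdcd1 and Tcf7 and without Havcr2 (68 and 150 cells), the ratio was 0.25 with 11 of 13 above 0. The mt- sum was thus lower in tumour plus in both gates. The nuclear ratio was 0.04 and 0.09, and complex II stayed below 0, at -0.19 and -0.28. Called in the PD-1 TIM-3 gate were 4 subunits higher and 0 lower (13.8% and 11.7% of all measured genes), and in the PD-1 TCF1 gate 11 and 2 (17.1% and 18.7%). Ndufa3 was higher in minus in both gates (0.81 and 0.91), while Atp5k was at -0.01 and 0.60.

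The neighbouring pathways came from fixed lists. For tumour minus over plus, of 14 measured glycolysis genes 0 were higher and 3 lower, against 1.7% and 5.44% of all genes. Gapdh led (977 against 2172 CPM, -1.15), and the median was -0.29. In spleen 2 of 13 were higher in minus, Gapdh (521 against 306 CPM, 0.77) and Eno1 (1.28). Another 2 were lower there, Hk1 (-0.65) and Pfkp (-0.77), against 1.41% and 10.3% of all genes higher and lower. In tumour over spleen 9 of 14 glycolysis genes were higher in the minus and 11 of 13 in the plus libraries, none lower in either, where 22% and 24.2% of all genes were higher. Of 71 measured mitochondrial ribosomal proteins 1 was called in tumour, Mrpl52 (0.59), and in tumour minus over spleen minus 1 of 73 was higher and 24 lower, where 14.5% of all genes were lower. Mitochondrial carriers and uncoupling genes had 4 of 8 higher in tumour plus over spleen plus (24.2% of all genes were), among them Slc25a3, the phosphate carrier (0.74), and Atpif1, the inhibitor of complex V (0.83), which was at -0.26 for tumour minus over plus. No member passed the limit in tumour minus over plus among the 23 measured assembly factors outside the name rule, the 4 biogenesis regulators, the 5 genes of mitochondrial DNA transcription and replication, the 3 translation factors, the 5 coenzyme Q genes and the 5 antioxidants. Furthest from 0 in their lists were Cox19 (-0.37), Gabpb1 (-0.31), Mterf3 (-0.35), Mtif2 (-0.24), Coq10a (0.34) and Glrx5 (-0.29). Cycs was at -0.18 and Cyc1 at -0.14. The dissociation stress list, with Egr1 furthest (-0.39), had 0 of 10 called in tumour minus over plus and 7 of 7 higher in tumour than in spleen in both fractions, beside each tissue contrast above, and its part in them was not tested.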

How the data were processed

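The deposited table gives natural log values per cell and gene. The exponential less 1 was whole for all nonzero values (relative tolerance 1e-12). These numbers were taken to be depth-corrected by the authors, although the spread of totals per cell is not given here. No label states this. They are named corrected counts here and were not given to a count model. The mm10 genome, Cell Ranger 3.0.2 and Seurat 3.0 were used, per the submitters' processing notes. No source used here gives the cell filters, the normalization or the gene annotation. Hashtags were not used to assign cells to mice. Depth was 2466601 to 10273681 corrected counts per library.

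Corrected counts were summed over the cells of each library and scaled to CPM. Log2 ratios used a pseudocount of 1 CPM. Genes counted as measured if either library as a whole reached 20 CPM with a value in 5% or more of its cells, and neither was at 0. Calls needed a log2 ratio of 0.5 or more in size. With 1 library per group there was no test. Separate samples of a group do not exist, so differences between mice or library preparations are not covered. Exact Clopper-Pearson 95% intervals and the limit at 3 counts cover counting error only. Doublets were not called. Gates were compared where each library had at least 50 cells. The members, lists and gates were chosen with earlier results of these data known. Named were, per comparison and complex, the measured subunit furthest above and furthest below 0, all members past 0.5, isoform genes, all mt- genes, and the gene of each pathway list furthest from 0 in tumour. Other genes named and the coding-length classes were chosen after values were seen. 1 pathway list and 1 gate are not reported here.

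Coding lengths and pseudogene copies came from GENCODE M21, which matched 101 of 102 members, 1 through a RefSeq synonym, and promoters from RefSeq. Of the motifs searched there, that of NRF1 was shortened to 8 letters after a longer form had been counted, which raised both shares. 40 members have annotated pseudogene copies of at least 90% identity over 200 nt (minimap2 2.31), among them Atp5k, Cox5a, Ndufb4, Cox7a2l and most mt- genes, and their counts may be split. Alternatives were another pseudocount, no filter, CPM without mt- and ribosomal protein genes, ratios relative to the median gene, mean CPM per cell, CD8-gated cells and cells with at least 1000 genes. Scripts were tested on simulated data. Software was pandas 2.3.3, scipy 1.17.1, matplotlib 3.10.9 and numpy 2.4.6 under Python 3.11.15.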

Additional observations from a re-analysis of the deposited data

Results flagged for a closer look

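5 members were past the size limit in opposite directions in tumour and in spleen when CD137 minus was set against plus. Of all measured genes 1.7% were called higher in tumour and 10.3% lower in spleen. How many of all genes were past the limit in both was not counted, so the 5 are not shown to be particular to the members. The tumour log2 ratio less the spleen log2 ratio was 2.16 for mt-Nd4l (1.13 in tumour, -1.03 in spleen), 1.85 for mt-Nd3 (1.11 and -0.75) and 1.49 for Ndufa3 (0.65 and -0.83). It was 1.14 for Atp5md (0.51 and -0.63) and 1.10 for Atp5mpl (0.58 and -0.53). Each group is 1 library, so the difference was not tested. All 5 have short coding sequences, from 174 to 345 nt. Not all kept both calls under the alternatives: Atp5md in tumour was at 0.48 with a pseudocount of 10 CPM, in CD8-gated cells and in cells with at least 1000 genes, and Atp5mpl in spleen at -0.48 without mt- and ribosomal protein genes and -0.45 relative to the median.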

How the results depend on the processing

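No value or count changed its direction past the limit under any setting tried. For this check 48 values were taken as called, slightly more than the member calls described above. Of these, 48 stayed past the limit with no filter on low values, 47 in CD8-gated cells and 47 with the mean over cells of each cell's CPM. In cells with at least 1000 genes 45 stayed, relative to the median of all genes 43. With CPM without mt- and ribosomal protein genes 42 stayed, and 40 with a pseudocount of 10 CPM. For tumour minus over plus the nuclear sum was 0.10 without mt- and ribosomal genes and 0.10 relative to the median, and the mt- sum 0.58, 0.59, 0.48 (CD8-gated) and 0.55 (at least 1000 genes). Nuclear members called lower there, 0 in the report, numbered 1 (mean over cells), 2 (CD8-gated) and 2 (at least 1000 genes). Shares of all genes under these settings are not given here. In spleen the nuclear sum was 0.01 and 0.04 and the mt- sum -0.01 without those genes, 0.01 relative, -0.09 (mean over cells) and -0.10 (at least 1000 genes). For the minus libraries, tumour over spleen, 10, 7 and 6 nuclear members were lower without those genes, relative and by the mean over cells, against 3 of 82. Of all measured genes 20.6% were lower without those genes and 15.7% relative, against 14.5%. The share by the mean over cells is not given here. The nuclear sum was -0.06 and 0.04 and the mt- sum -0.03, 0.07, 0.13 (mean over cells) and 0.12 (at least 1000 genes). For the plus libraries, 1 nuclear member was higher and 20 lower without those genes, against 4 and 9 of 83. All measured genes moved likewise, with 17.2% higher and 25.9% lower without those genes, against 24.2% and 17.5%. The nuclear sum was -0.15 and -0.01 there, and the mt- sum -0.62, -0.49 and -0.53 (at least 1000 genes). The sign of the nuclear sum is thus not settled in any comparison, and the cause was not tested. Sums without mt- and ribosomal genes differ because ribosomal shares differ between libraries (29% to 39.9%). No paired analysis was possible because each group is 1 library and the labels carry no replicate numbers, and no library could be left out for the same reason. Values near 20 CPM rest on few counts, such as 99 for Ndufs1 in tumour minus, and the precision across mice is unknown.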
